A study of Mus musculus with 2 samples.

Results

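Tubulin isotypes are the products of separate genes for the alpha and beta subunits of the microtubule. This account follows 9 of them, the beta genes Tubb2a, Tubb2b, Tubb4b, Tubb5 and Tubb6 and the alpha genes Tuba1a, Tuba1b, Tuba1c and Tuba4a, together with Tppp3, which encodes a microtubule-binding protein of the tubulin polymerization promoting family. The genes were taken by symbol from the count matrix, where 10 of 10 were present among 17492 rows. They were chosen by name with measured values of these libraries in view, above all the lower Tubb2a over all cells and the higher Tppp3 in LSC and Basal cells pooled, so those values are given as a description. Each gene was read as unique molecular identifier (UMI) counts summed by library and by the cell type label that the authors gave each cell.

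RNA was measured cell by cell in epithelium from the corneas of C57BL/6J males at 20 weeks of age. The Diabetic library came from mice given streptozotocin, a toxin of pancreatic beta cells, as 1 injection of 160 mg/kg, and kept in a 12 week study only while blood glucose stayed above 250 mg/dL. The Control library came from mice given sodium citrate buffer. Each library pooled 4 corneas from 2 mice, no animal can be told from its pool mate, and the epithelium was lifted with an enzyme and dissociated with trypsin before droplet capture with a 3′ end assay. With 1 library per group no test between groups is possible, so values are given with exact 95% intervals that cover counting error only. Levels are CPM, the UMIs of a gene scaled to the total of the same sum. A difference was called when CPM differed at least 1.5-fold, with 50 or more counts over both libraries and Poisson intervals that did not overlap. The rule describes these 2 pools.

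Microtubules are polymers of alpha and beta tubulin heterodimers that carry cargo, shape cells and build the mitotic spindle. The isotypes are alike along most of their length and differ mainly in the acidic tail at the carboxyl end, which projects from the microtubule surface and takes most of the reversible modifications. Cells also sense free tubulin dimer and degrade tubulin mRNA that is being translated when dimer is in excess, so that levels of tubulin transcripts are tied to the state of the polymer. In the cornea, basal cells divide, and their daughters move up through wing cells to flat superficial cells that are shed.

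The libraries held 9605 control and 8203 diabetic cells, with median depths of 16487 and 17677 UMIs per cell. The 8 labels were Conj, Squam, Wing, TAC2, TAC1, Basal, LSC and Immune, and what the abbreviations stand for is not given in the sources used here. Marker lists for TAC2, Wing, Squam, Conj and Immune were highest in the label of their own name in both libraries. The LSC list was higher in Conj cells than in LSC cells, the Basal list was highest in Wing, and the TAC1 list was highest in TAC2, so those 3 labels are used as the authors' names only. The same cell barcode occurred in both libraries for 18 barcodes.

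The coding ends are shown because the tail is where isotypes differ most, and because near-identical ends are hard to tell apart by short reads. Each line is the last 60 coding bases of the GENCODE M21 transcript with its stop codon, read 5′ to 3′. In the first pair the capitals mark the bases that differ between Tubb2a and Tubb2b.
Tubb2a: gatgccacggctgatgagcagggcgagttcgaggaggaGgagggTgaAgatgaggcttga
Tubb2b: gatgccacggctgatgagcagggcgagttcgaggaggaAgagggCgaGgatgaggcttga
These genes are neighbours on chromosome 13 (GRCm38, minus strand), Tubb2a at chr13:34074274-34078007 and Tubb2b at chr13:34126748-34130466, with 48740 bases between them. Their tails differ at 3 of 60 bases, and each difference is at the last base of a codon. In the next set the capitals mark the last sense codon and the stop codon.
Tubb4b: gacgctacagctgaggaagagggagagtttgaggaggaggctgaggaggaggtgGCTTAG
Tubb5: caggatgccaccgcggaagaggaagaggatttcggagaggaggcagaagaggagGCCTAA
Tuba1c: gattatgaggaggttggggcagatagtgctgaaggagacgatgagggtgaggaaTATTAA
Tuba4a: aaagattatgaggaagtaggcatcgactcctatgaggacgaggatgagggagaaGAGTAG
Tuba1c, which lies with Tuba1a and Tuba1b on chromosome 15, ends in a tyrosine codon. That tyrosine is the residue removed and put back in the detyrosination cycle. Tuba4a on chromosome 1 ends in a glutamate codon, so its protein is made without the terminal tyrosine.

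Reads of this assay come from near the 3′ end, so the last 500 transcript bases were searched for stretches shared with other genes. Of 411 windows of 90 bases, Tubb2a shared 25.8% with Tubb2a-ps2 or Tubb2b. Tubb4b shared 12.7%, Tuba1a 52.1%, Tuba1b 60.1% and Tuba1c 65.0%, mostly with pseudogenes and with each other. No window was shared for Tubb2b, Tubb5, Tubb6, Tuba4a or Tppp3. How the authors' counting assigned reads that match several genes is not given in the sources used here, so the split among Tuba1a, Tuba1b and Tuba1c, and part of the Tubb2a count, are uncertain.

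Over all cells, Tubb2a and Tubb2b were lower in the diabetic library and the other 8 genes did not pass the rule. Thus 2 of 10 genes were called lower, beside 2.80% of the 13846 genes tested, and 0 of 10 were called higher, beside 5.98%. The median log2 ratio of the 10 genes was -0.05, and that of all genes tested was 0.07. These genes were chosen with earlier results of the same libraries known, so the counts describe them and support nothing further.

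Tubb2a, a class II beta tubulin prominent in brain, stood at 79.5 CPM (78.3 to 80.8) in the control library and 41.8 CPM (40.8 to 42.8) in the diabetic library, 1.90-fold lower (1.85 to 1.96). Tubb2b, its closest relative and a gene whose human counterpart is mutated in disorders of neuronal migration, stood at 74.1 CPM and 42.2 CPM, 1.76-fold lower (1.71 to 1.81). The genes of the pair were close in level in each library, and both were called lower.

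Within labels the same direction held throughout for this pair. Tubb2a passed the rule as lower in 7 of 7 epithelial labels and Tubb2b in 5 of 7, with a ratio below 1 in the other two. In Wing cells, where most of their UMIs lay, Tubb2a was at 131 CPM in the control and 77.2 CPM in the diabetic library, and Tubb2b at 129.6 CPM and 81.6 CPM. In Squam cells Tubb2a was at 60.8 CPM and 38.2 CPM, and Tubb2b at 28.6 CPM and 16.5 CPM. The diabetic value was below the control value in each of these pairs, and their intervals did not meet.

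In Conj cells Tubb2a was at 212 CPM in the control and 139 CPM in the diabetic library, a 1.53-fold difference, and Tubb2b at 232 CPM and 172 CPM, a 1.35-fold difference that did not reach the rule. In LSC cells Tubb2a was at 34.0 CPM and 12.6 CPM, on 74 and 58 UMIs, and Tubb2b at 63.8 CPM and 28.0 CPM. LSC thus had the largest ratios of the pair, on few molecules.

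Basal cells held 4.14 CPM and 2.01 CPM of Tubb2a, and TAC1 cells 3.05 CPM and 1.44 CPM, the lowest levels of the gene. Tubb2b was at 5.60 CPM and 2.49 CPM in Basal cells, and at 4.12 CPM and 2.53 CPM in TAC1 cells, where it did not pass the rule. TAC2 cells had 19.8 CPM and 10.1 CPM of Tubb2a, and 18.2 CPM and 11.5 CPM of Tubb2b. The TAC2 difference in Tubb2a depended on cells scored as likely doublets: without them the log2 ratio was -0.11 in place of -0.97, with levels of 7.72 CPM and 7.16 CPM. Elsewhere the direction of Tubb2a held without those cells and after thinning, described below, but its call was lost in TAC1 and Conj by the first and in LSC, Basal, TAC1, TAC2 and Conj by the second, which leaves Wing and Squam called in both. After thinning, which leaves fewer counts, the log2 ratio of Tubb2a was -2.86 in LSC, -1.41 in TAC1, -0.94 in Basal, -0.73 in TAC2 and -0.49 in Conj, and without likely doublets it was -0.92 in TAC1 and -0.57 in Conj. The Tubb2b call in TAC2 was lost under each of them, at -0.53 and -0.63 against -0.66, while Tubb2b in TAC1 was called lower without likely doublets, at -1.09.

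The order of labels was the same for Tubb2a in both libraries. Conj was highest, then Wing, Squam, LSC and TAC2, with Basal and TAC1 lowest and overlapping; LSC and TAC2 overlapped in the diabetic library. Tubb2b had the same order with LSC above Squam, again with Basal and TAC1 overlapping at the bottom. Control Conj cells had 69.5 times the Tubb2a level of control TAC1 cells.

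**Figure D1:**
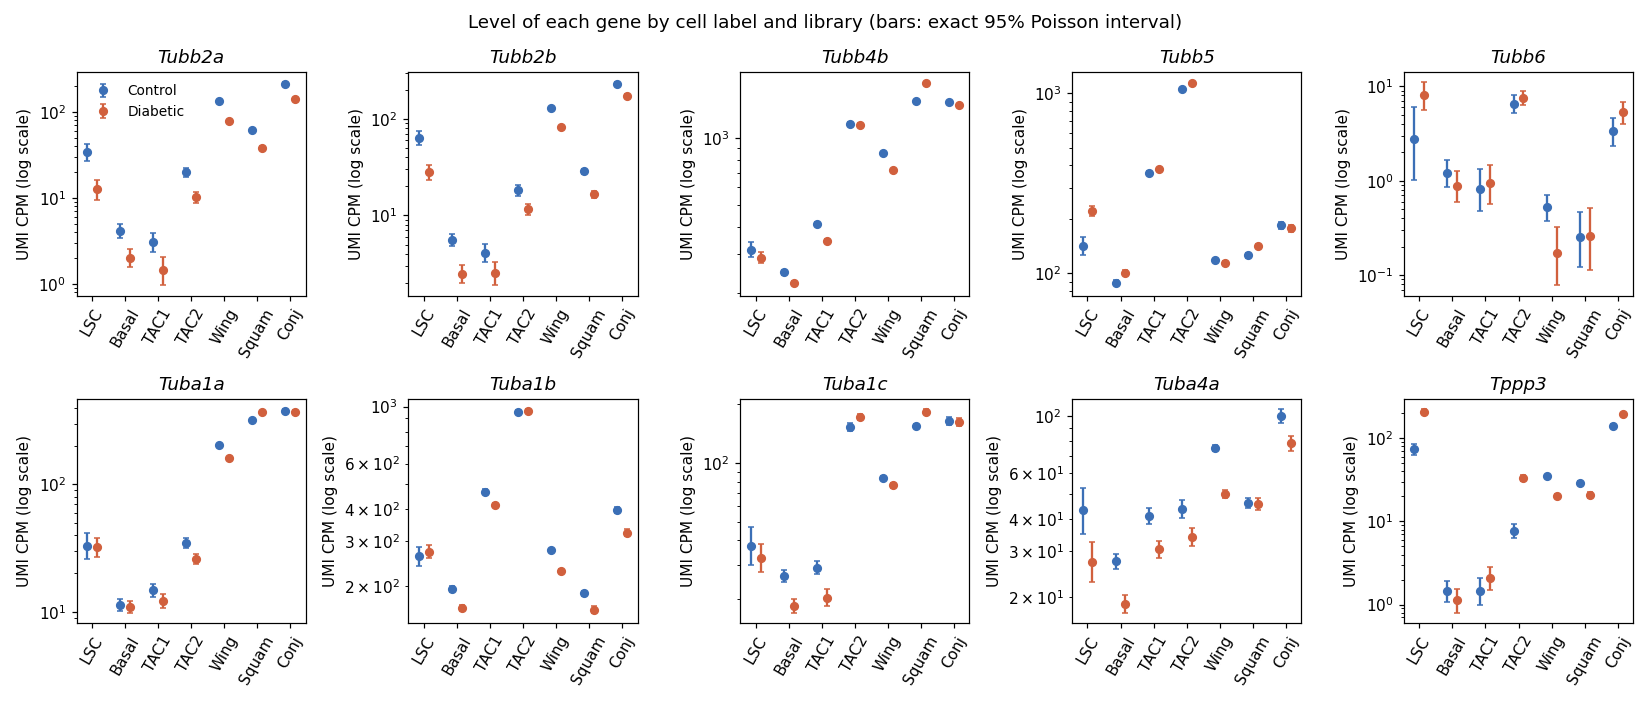
Level of each of the 10 genes in the 7 epithelial labels, in UMI CPM on a log scale, with the control library in blue and the diabetic library in red; bars are exact 95% Poisson intervals. Tubb2a and Tubb2b are lower in the diabetic library in every label, while Tppp3 is higher in LSC and TAC2 and lower in Wing.

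The Tubb2a and Tubb2b differences were also seen as fewer cells with the transcript. With every cell cut down by random draw to 5000 UMIs, called thinning below, Tubb2a was seen in 41.8% of control Wing cells (40.0% to 43.7%) and 28.0% of diabetic ones (26.0% to 30.1%), against 74.4% and 59.2% before thinning. In Squam the thinned shares were 21.5% and 13.8%, and in Conj 60.4% and 46.7%. Tubb2b was seen in 43.0% of control and 28.8% of diabetic Wing cells after thinning. Both transcripts were seen together in 22.0% of control and 11.6% of diabetic Wing cells. In each of these labels the diabetic share was the lower one.

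**Figure D2:**
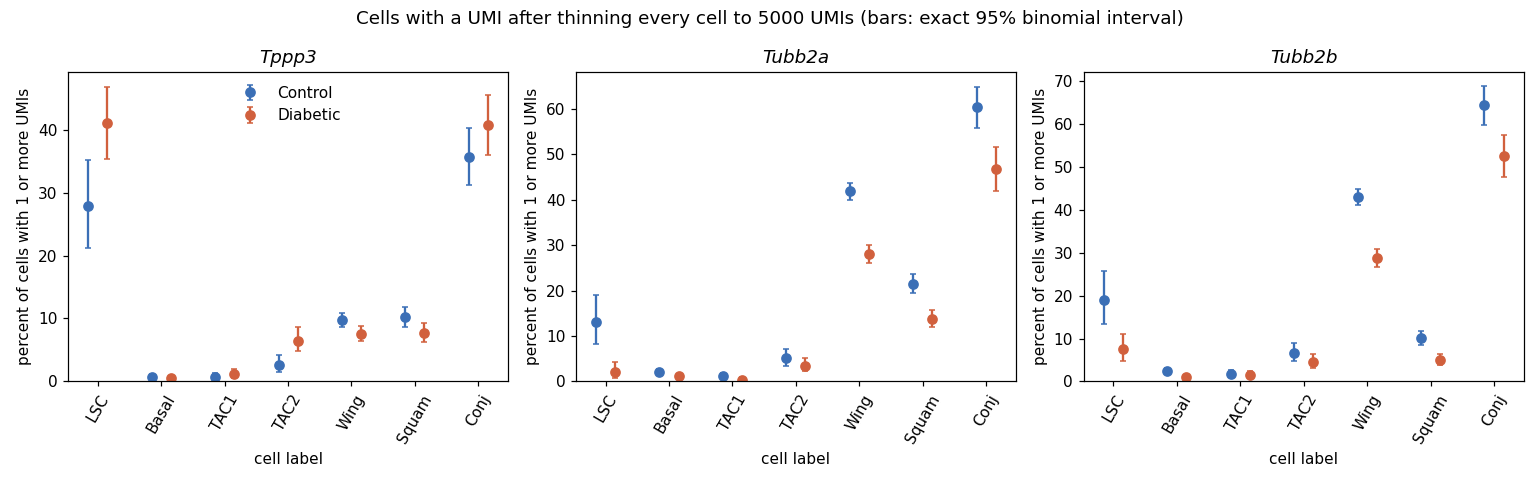
Percent of cells with 1 or more UMIs of Tppp3, Tubb2a and Tubb2b by label after thinning every cell to 5000 UMIs, control in blue and diabetic in red, with exact 95% binomial intervals. Tubb2a stands at 41.8% and 28.0% of Wing cells, and Tppp3 differs in the other direction in LSC, at 27.8% and 41.0%.

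Wing cells differed in how many UMIs of the Conj marker list they carried, and levels of Tubb2a differed with it. In thinned Wing cells with 0 UMIs of that list Tubb2a was at 74.2 CPM in the control and 29.3 CPM in the diabetic library, and in those with 20 or more it was at 223 CPM and 175 CPM. Tubb2a was lower in the diabetic library in 4 of 4 classes of Wing cells made from that list. The ratio was furthest from 1 where the list was at 0, at 0.395, and nearest to 1 where it was highest, at 0.784.

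RefSeq (GRCm38.p6) promoter entries, 250 bases before each gene's start, were found for 7 of the 10 genes; Tubb2b, Tubb6 and Tppp3 had no entry. The stretch of the Tubb2a promoter at chr13:34078009-34078128, minus strand, is shown because it holds a pair of short motifs, in capitals, that its relatives among the entries lack.
Tubb2a promoter: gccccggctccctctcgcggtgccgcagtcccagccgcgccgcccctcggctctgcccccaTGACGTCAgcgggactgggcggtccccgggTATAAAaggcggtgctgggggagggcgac
The letters TGACGTCA, known as the full cyclic AMP response element, were found on either strand in 1.55% of 32851 promoters of the same length, and TATAAA in 12.4%. Of the 7 genes with an entry, Tubb2a was the single holder of each. CCAAT was in 33.8% of all promoters and in those of Tubb4b, Tubb5, Tuba1a and Tuba1c, and GGGCGG was in 32.7% of all and in those of Tubb2a, Tubb4b, Tuba1a, Tuba1b and Tuba4a. Any overlap among motifs was allowed, and a match describes letters only.

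Tubb4b, the beta isotype found in most tissues and in the axoneme of cilia, was the most abundant of the 10 genes by UMI, a scale on which each captured molecule counts once whatever its length. It stood at 881 CPM in the control and 842 CPM in the diabetic library, a ratio of 0.956 (0.949 to 0.963). Control levels ran from 249 CPM in Basal cells to 1469.8 CPM in Squam, next to 1448 CPM in Conj. Diabetic levels ran from 222 CPM in Basal to 1773 CPM in Squam. The largest increase within a label was in Squam, at 1.21-fold, and the largest decrease in Wing and TAC1, at 1.19-fold and 1.20-fold. None passed the rule.

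Tubb5, the main beta tubulin of dividing cells, was at 207 CPM (205 to 209) in the control and 261 CPM (259 to 264) in the diabetic library, a ratio of 1.26, which is under the rule. TAC2 cells had far the most, with 1057 CPM and 1140.2 CPM, followed by TAC1 with 362 CPM and 378 CPM. Wing cells had 119 CPM and 115 CPM, a ratio of 0.970. The ratio was 1.04 in TAC1, 1.08 in TAC2, 1.14 in Basal, 1.13 in Squam and 0.967 in Conj, each below the pooled 1.26. TAC2 cells gave 12881914 of 196359192 control UMIs and 17684494 of 171030636 diabetic UMIs. The pooled ratio was also computed with the same label weights in both libraries, and there Tubb5 was again not called higher. The part of label makeup in the pooled ratio was not tested beyond this. In LSC cells Tubb5 was at 143 CPM and 223 CPM, 1.56-fold higher (1.37 to 1.78), and was called. Beside it, cells with 2 or more UMIs of a list of G2 and M phase genes were 5.92% of control and 9.49% of diabetic LSC cells; their part in the difference was not tested. After thinning the Tubb5 log2 ratio in LSC was 0.31 in place of 0.64, and the call was lost.

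Tubb6, a beta isotype known for its induction in regenerating muscle, was rare. It had 234 control and 295 diabetic UMIs, or 1.19 CPM and 1.72 CPM, a ratio of 1.45 (1.22 to 1.73) just under the rule. In LSC it had 6 and 37 UMIs, a ratio of 2.92 (1.22 to 8.46), with fewer than 50 counts. In Conj it had 37 and 59 UMIs, a ratio of 1.59 with intervals that overlapped. In Wing it had 41 and 9 UMIs, 3.06-fold lower (1.47 to 7.17), which passed the rule, and the call was lost without likely doublets, at a log2 ratio of -1.88, and after thinning, at -1.05, against -1.61. Its highest control level was in TAC2, at 6.52 CPM, while the diabetic LSC, TAC2 and Conj values of 8.04 CPM, 7.52 CPM and 5.29 CPM overlapped between neighbours.

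As a share of all beta tubulin UMIs, Tubb4b made up 70.9% in the control and 70.8% in the diabetic library, and Tubb5 made up 16.6% and 22.0%. The sum of Tubb2a and Tubb2b was 12.4% and 7.06%. In Conj cells the pair made up 21.4% in the control and 16.4% in the diabetic library, in Wing 21.1% and 16.0%, and in TAC1 0.917% and 0.545%. Tubb5 made up 46.3% and 52.0% in TAC1, 46.7% and 49.1% in TAC2, and 7.48% and 7.21% in Squam. Tubb3, the neuronal beta isotype, had 3 UMIs in each library.

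**Figure D3:**
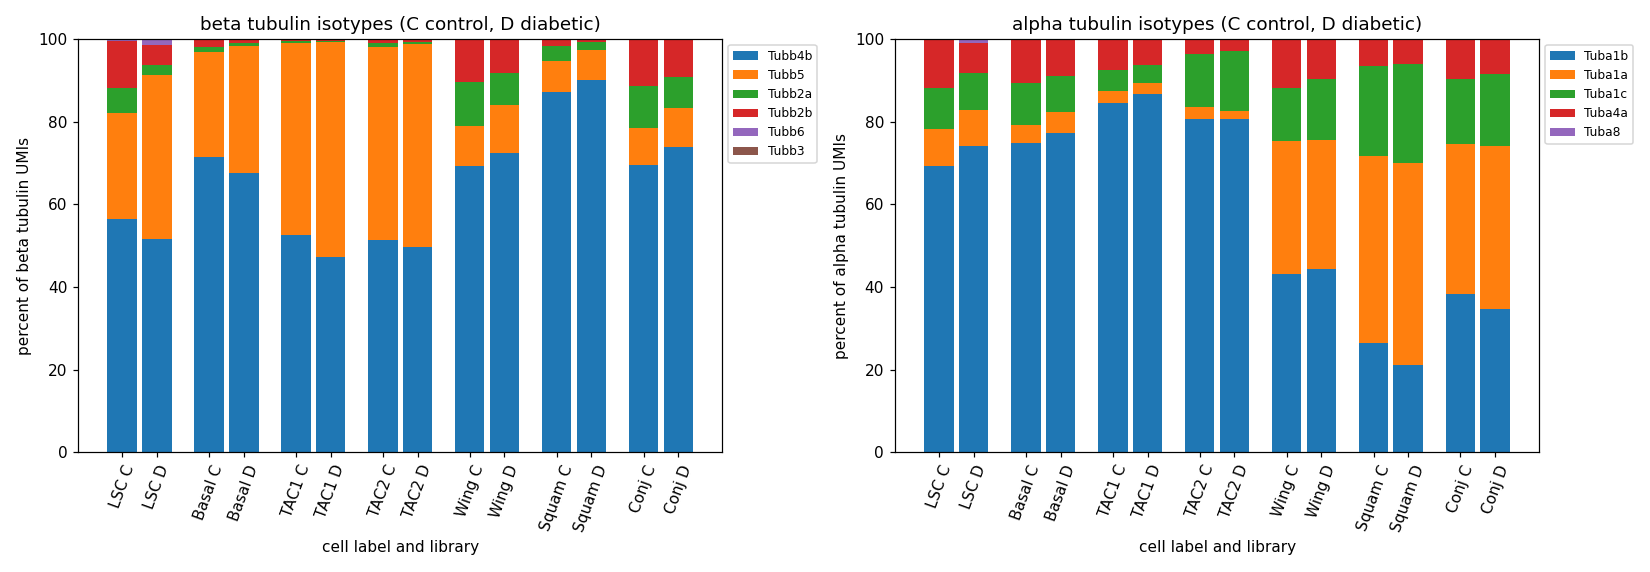
Percent of all beta tubulin UMIs (left) and all alpha tubulin UMIs (right) taken by each isotype, by label, control (C) beside diabetic (D). Tubb4b and Tubb5 share the TAC2 beta pool, at 51.3% and 46.7% in the control, and Tuba1b gives way to Tuba1a in Squam.

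Among the alpha genes none passed the rule over all cells. Tuba1b, the broadly expressed alpha isotype of dividing cells, was at 316 CPM in the control and 309 CPM in the diabetic library. It was highest in TAC2, with 955 CPM and 962 CPM, then in TAC1, with 467 CPM and 414 CPM. It was lowest in Squam, with 187 CPM and 162 CPM, where it overlapped with Basal.

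Tuba1a, the alpha isotype of postmitotic neurons whose human counterpart is mutated in lissencephaly, was at 173 CPM in the control and 148 CPM in the diabetic library. Its levels by label were 377 CPM and 370.3 CPM in Conj, 319 CPM and 373 CPM in Squam, 205 CPM and 161 CPM in Wing, and 11.3 CPM and 10.9 CPM in Basal. Tuba1a thus ran more than an order of magnitude higher in the upper labels than in Basal. No difference between the libraries passed the rule in any label.

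Tuba1c, the remaining gene of the chromosome 15 cluster, was at 91.2 CPM and 91.9 CPM. In Squam it was at 155 CPM in the control and 183 CPM in the diabetic library, and in Basal at 26.3 CPM and 18.5 CPM. The Squam ratio of 1.18 and the Basal ratio of 0.703 lie on opposite sides of 1, and neither passed the rule. Because windows at the ends of Tuba1a, Tuba1b and Tuba1c are shared, these levels depend on how reads were assigned.

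Tuba4a, the isotype with the glutamate end, was at 57.1 CPM in the control and 40.3 CPM in the diabetic library, 1.42-fold lower (1.37 to 1.46) and short of the rule. Its ratio was below 1 in 7 of 7 labels, from a log2 ratio of -0.01 in Squam to -0.66 in LSC. It passed the rule in LSC, with 43.1 CPM and 27.4 CPM, and in Wing, with 75.3 CPM and 49.9 CPM, the latter at 1.51-fold (1.44 to 1.58). Conj had the highest level, with 100.1 CPM and 78.6 CPM. The LSC call was lost after thinning, with the log2 ratio at -0.65.

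By share, Tuba1b made up 49.6% of alpha UMIs in the control and 52.4% in the diabetic library, Tuba1a 27.1% and 25.1%, Tuba1c 14.3% and 15.6%, and Tuba4a 8.95% and 6.85%. In Basal cells Tuba1b took 74.9% and 77.2% and Tuba1a 4.34% and 5.15%. In Squam cells Tuba1a took 45.1% and 48.8% and Tuba1b 26.5% and 21.2%. The ratio of all beta to all alpha UMIs was 1.95 in the control and 2.02 in the diabetic library, and by label it lay between 1.34 in control Basal and 2.58 in diabetic Squam.

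Levels were compared across the 14 sums of 7 labels and 2 libraries, on log2(CPM + 1). The highest Pearson correlations among the tubulin genes were 0.97 for Tubb4b and Tuba1c, 0.96 for Tubb2a and Tubb2b, 0.94 for Tubb5 and Tuba1b, and 0.92 for Tubb2a and Tuba1a. Tubb2a and Tuba4a followed at 0.88, Tubb2b and Tuba4a at 0.86, and Tubb4b and Tuba1a at 0.82, while Tuba1a and Tuba1b were at -0.24. These are descriptions over sums that share libraries, not independent samples. By the same measure the other genes most like Tubb2a were Serpinb1a (0.990), Akr1b7 (0.988) and Pdlim2 (0.982), and those most like Tubb6 were Psmd2 (0.874), Fbln1 (0.873) and Arhgdia (0.870).

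Within TAC2 and TAC1 the level of several isotypes followed the G2 and M phase list. In thinned control TAC2 cells Tubb5 was at 170.0 CPM in cells with fewer than 2 UMIs of that list and 1139 CPM in cells with 2 or more, 6.70-fold higher (5.27 to 8.65). The diabetic values were 168 CPM and 1199 CPM. Tubb4b was 2.5-fold and 3.76-fold higher in the control and diabetic G2 and M cells, Tuba1b 3.37-fold and 4.54-fold, and Tuba1c 2.44-fold and 6.20-fold. The last value (2.99 to 15.5) rests on 7 UMIs in the 50 diabetic cells with fewer than 2 UMIs of the list. Intervals for Tuba1a and Tuba4a held a ratio of 1 in both libraries, and so did those for Tubb2a and Tubb2b in the control. The G2 and M cells were 86.9% of control and 92.8% of diabetic TAC2 cells. In thinned TAC1 cells Tubb5 was 1.99-fold and 2.18-fold higher in the control and diabetic G2 and M cells. There Tubb4b was 1.31-fold and 1.47-fold higher and Tuba1b 1.43-fold and 1.67-fold, while Tuba1c intervals held a ratio of 1 in both libraries.

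**Figure D4:**
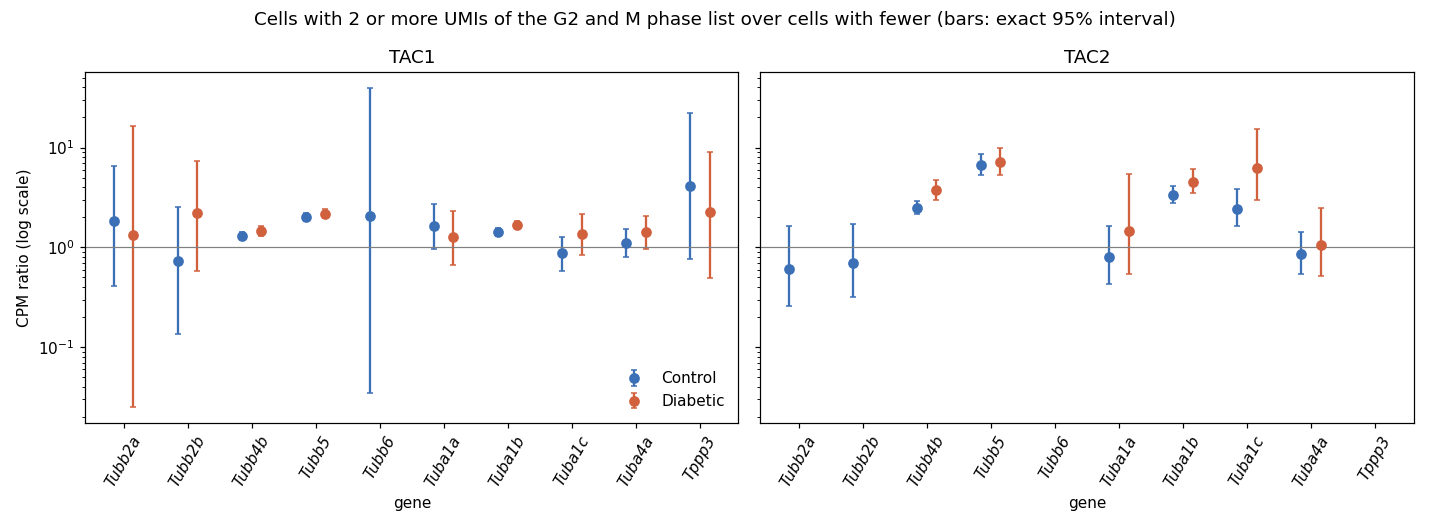
CPM in cells with 2 or more UMIs of the G2 and M phase list over CPM in cells with fewer, for each gene in TAC1 (left) and TAC2 (right), on a log scale with exact 95% intervals; genes with 0 counts in either class are not drawn. Tubb5 in control TAC2 stands at 6.70, while Tuba1a and Tuba4a intervals include 1.

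Tppp3, known in the mouse as a marker of tendon sheath and synovial progenitor cells, was at 29.7 CPM in the control and 32.2 CPM in the diabetic library over all cells. That ratio of 1.09 (1.05 to 1.13) pools labels that went in opposite directions and whose shares of cells differed between the libraries. LSC cells were 2.10% of control and 4.04% of diabetic cells, and Wing cells 30.2% and 24.1%. Alternative runs, among them the same label weights in both libraries, gave pooled log2 ratios of Tppp3 from 0.04 to 0.32. The part of these shares in the pooled ratio was not tested beyond this. Tppp3 rose in LSC and TAC2 and fell in Wing.

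In LSC cells Tppp3 was at 74.4 CPM (63.4 to 86.7) in the control and 210.5 CPM (197 to 224) in the diabetic library, 2.83-fold higher (2.39 to 3.36), on 162 and 969 UMIs. In TAC2 cells it was at 7.69 CPM (6.25 to 9.36) and 33.3 CPM (30.7 to 36.1), 4.33-fold higher (3.50 to 5.42). In Wing cells it was at 35.1 CPM and 20.1 CPM, 1.74-fold lower (1.62 to 1.87), with a log2 ratio of -0.55 and no call after thinning. The intervals of the libraries were apart in all 3 labels.

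Conj cells had 143 CPM of Tppp3 in the control and 195 CPM in the diabetic library, a ratio of 1.37, and Squam cells 29.1 CPM and 20.7 CPM, a ratio of 0.711. Basal cells had 1.46 CPM and 1.13 CPM, and TAC1 cells 1.45 CPM and 2.08 CPM. None of these 4 passed the rule. In the control the order ran from Conj through LSC, Wing, Squam and TAC2 to Basal and TAC1, which overlapped. In the diabetic library LSC and Conj overlapped at the top, TAC2 came next, Squam and Wing overlapped, and Basal and TAC1 were again lowest. Immune cells, 26 in the control and 10 in the diabetic library, had 0 UMIs of Tppp3 at median depths of 2424 and 3044 UMIs, which leaves upper limits of 38.4 CPM and 117 CPM.

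After thinning, Tppp3 was seen in 27.8% of control LSC cells (21.2% to 35.2%) and 41.0% of diabetic ones (35.4% to 46.9%), against 32.2% and 51.1% before thinning. Positive LSC cells held 1.57 UMIs on average in the control and 2.32 in the diabetic library. In TAC2 the thinned shares were 2.62% and 6.49% (4.78% to 8.59%), at median depths of 16629 and 24500 UMIs before thinning. Basal cells gave 0.677% and 0.518%, and TAC1 cells 0.664% and 1.12%. So the LSC difference lay in both the share of cells and the UMIs per positive cell.

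Few TAC2 cells carried Tppp3. The top 5% of TAC2 cells held 81.8% of its UMIs in the control and 87.1% in the diabetic library, and the highest cell had 10 and 61 UMIs. In LSC the top 5% held 36.4% and 29.9%. Without likely doublets the TAC2 levels were 5.22 CPM and 37.8 CPM, a log2 ratio of 2.85.

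Markers of other cells were measured in the same labels. Of the Conj list, 5 of 6 genes were rows of the matrix and none was at 0; their sum in LSC cells was 1548 CPM for the control and 1724 CPM for the diabetic library, and in TAC2 it was 278 CPM and 316 CPM. Its members differed among themselves: in TAC2 Cyp2f2 stood at 4.74 CPM and 14.7 CPM (61 and 260 UMIs), and the ratio of diabetic to control CPM was 1.79 for Krt4, 1.58 for Krt8, 0.907 for Krt13 and 0.875 for Krt19. In LSC Krt8 stood at 16.1 CPM and 24.1 CPM and Krt4 at 655 CPM and 816 CPM, and the ratio was 1.34 for Krt19, 0.976 for Krt13 and 0.884 for Cyp2f2. Their part in the Tppp3 differences was not tested. Among thinned LSC cells Tppp3 was higher in the diabetic library in 4 of 4 classes of Conj list UMIs. The intervals overlapped in the class with 0 such UMIs, on 6 and 23 Tppp3 UMIs, and in the class with 20 or more, on 19 and 34. A restriction to cells with fewer than 5 such UMIs was added after seeing the data. In it LSC cells had 60.4 CPM and 139 CPM (2.30-fold higher, 1.55 to 3.50) and TAC2 cells 3.75 CPM and 15.7 CPM (4.20-fold higher, 2.16 to 8.94).

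The stroma list had 1 of 5 genes present, Dcn, which LSC cells held at 13.3 CPM in the control and 23.7 CPM in the diabetic library, and TAC2 cells at 0.776 CPM and 2.26 CPM (10 and 40 UMIs). The list set as endothelial had 2 of 3 genes present, Car3 with 0 and 188 UMIs in LSC and Pecam1 with 0 and 1. Its sum in LSC, 0 CPM and 41.1 CPM, was thus nearly all Car3 and is not read as a sign of endothelial cells. The goblet list had 3 of 4 present, with Spdef and Tff1 at 0, and its remaining gene, Agr2, stood at 34.9 CPM and 46.9 CPM in LSC and at 7.30 CPM and 14.2 CPM in TAC2 (94 and 251 UMIs). In LSC the melanocyte list had 3 of 4 present, with Mlana at 0, and summed to 2.75 CPM and 2.17 CPM, and the Schwann list had 2 of 3 present and summed to 5.05 CPM and 2.39 CPM. The ciliated list had 1 of 4 present, Rsph1, at 1.84 CPM and 2.82 CPM in LSC, and the neuron list 1 of 5, Tubb3, at 0 there. In TAC2 cells the sum of Pecam1 and Car3 was 0.0776 CPM and 0.226 CPM, and the melanocyte sum 6.44 CPM and 5.202 CPM. The Schwann sum there was 2.64 CPM and 2.15 CPM, and Rsph1 stood at 6.83 CPM and 5.60 CPM. The part of cells that bear Dcn, Car3 or Agr2 in the Tppp3 differences was not tested.

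The genes whose levels across the 14 sums were most like Tppp3 were Filip1l (0.990), Lurap1l (0.975) and Osr2 (0.972). Over all cells, where the ratio of Tppp3 itself was 1.09, none of these differed 1.5-fold. Filip1l was at 11.9 CPM in the control and 13.3 CPM in the diabetic library, Lurap1l at 6.63 CPM and 8.33 CPM, and Osr2 at 16.3 CPM and 15.3 CPM. These pooled values do not show how the 3 genes differed within LSC, TAC2 or Wing.

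By label, the number of the 10 genes called lower and higher was 3 and 2 in LSC (2.61% and 2.63% of all genes tested there), 2 and 0 in Basal (2.38% and 2.63%), and 1 and 0 in TAC1 (1.52% and 1.70%). It was 2 and 1 in TAC2 (1.35% and 2.21%), 5 and 0 in Wing (2.59% and 3.93%), 2 and 0 in Squam (7.75% and 1.79%), and 1 and 0 in Conj (1.95% and 2.52%). In all, 16 of 70 pairs of gene and label were called lower and 3 higher, and 67 of the 70 had 50 or more counts. Wing held the most lower calls, with Tubb2a, Tubb2b, Tubb6, Tuba4a and Tppp3 lower, and LSC had as many calls in all.

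**Figure D5:**
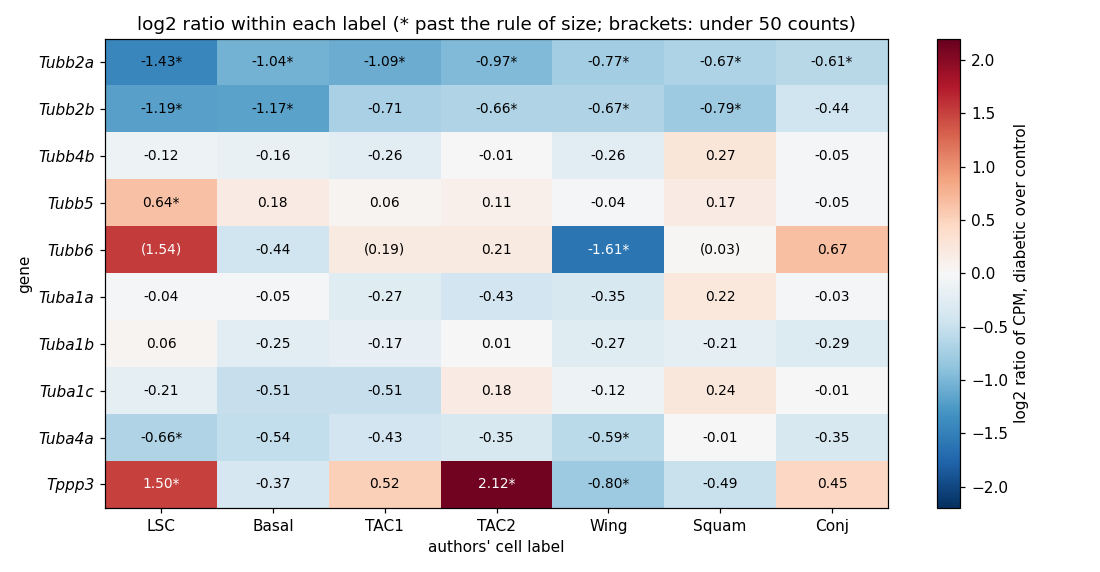
Log2 ratio of CPM, diabetic over control, for each gene (rows) within each label (columns); a star marks values past the rule of size and brackets mark fewer than 50 counts. Tubb2a is starred in all 7 labels, from -0.61 in Conj to -1.43 in LSC, and Tppp3 runs from 2.12 in TAC2 to -0.80 in Wing.

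Other genes of the microtubule system were read over all cells, where 5.98% of all genes tested were called higher and 2.80% lower. Of 22 genes listed under tubulin folding, mostly for prefoldin, chaperonin and cofactor proteins, 0 were called, with a median log2 ratio of -0.00. The most abundant, Pfdn5, was at 609 CPM in the control and 571 CPM in the diabetic library, and Pfdn1 at 320.3 CPM and 322 CPM. Of 11 genes for tubulin modification 0 were called, with a median of 0.08; Svbp, the partner of the enzymes that remove the terminal tyrosine, was at 53.9 CPM and 46.6 CPM, and the deacetylase Sirt2 at 25.5 CPM and 24.2 CPM. Of 26 microtubule-binding genes 0 were called, with a median of 0.12; the linker Dst was at 181 CPM and 234 CPM, and Stmn1, which sequesters tubulin dimers, at 107 CPM and 160.2 CPM. Of 18 transport motor genes 0 were called, with a median of 0.03; Dynll1 was at 1241 CPM and 987 CPM, and Kif5b at 223 CPM and 222 CPM. Within labels some genes of these lists were called, given here with the share of all genes tested in that label. In LSC, 2 of 21 folding genes were lower (2.61%) and 2 of 20 microtubule-binding genes higher (2.63%). In Squam, 2 of 11 modification and 3 of 21 microtubule-binding genes were lower (7.75%). Of the microtubule-binding genes, 1 of 25 was lower in TAC1 (1.52%), 1 of 25 higher in TAC2 (2.21%) and 1 of 20 higher in Conj (2.52%). The motors had 0 calls in the 7 labels.

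Of 12 motors and crosslinkers of the spindle, 10 were called higher over all cells and 0 lower, beside 5.98% and 2.80% of all genes tested, with a median of 0.68. The bundler Prc1 was at 22.6 CPM in the control and 39.3 CPM in the diabetic library, Kif20b at 9.14 CPM and 15.3 CPM, Kif11 at 6.10 CPM and 11.1 CPM, and the kinetochore motor Cenpe 1.54-fold higher in the diabetic library. Within labels, 4 of 12 were called higher in Wing (median 0.55), beside 3.93% of all genes tested there. In LSC 2 of 2 with 50 counts were called higher (median 1.86) and in Basal 1 of 7, beside 2.63% in each of these labels. In TAC1, TAC2, Squam and Conj 0 were called. Without TAC2 cells 1 was called over all cells, and TAC2 cells were 6.84% of control and 8.61% of diabetic cells. Of 13 nucleation genes 1 was called higher, Haus4 at 9.42 CPM and 14.4 CPM, with a median of 0.22. Within labels 1 of 10 with 50 counts was called higher in LSC, beside 2.63% of all genes tested there, and 0 were called in the other labels. Of 10 other rows whose symbols start as tubulin genes do, 5 of them gamma tubulin complex proteins also in the nucleation list, 2 were called higher, Tuba8 on 34 and 58 UMIs and Tubg2 on 89 and 123 UMIs, with a median of 0.29. Of 5 ciliary genes with 50 counts 0 were called, with a median of 0.14; Ift20 was at 106.5 CPM and 93.9 CPM and Ift88 had a ratio of 1.22. The other tubulin rows and the ciliary genes had 0 calls within labels.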

How the data were processed

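The authors deposited raw UMI counts, whole numbers for every gene in every cell with no normalization, and a table that assigns cells to groups and labels. The submitters' processing notes name Cell Ranger 5.0.0, Seurat 4 and mm10 without their roles, and the sources used here do not give the filters on cells. The genes, pathway lists, marker lists and tests were chosen with earlier results of these data known.

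Counts were summed over cells by library and label and expressed as CPM, with exact 95% Poisson intervals, exact conditional binomial intervals for ratios and Clopper-Pearson intervals for shares. PCR copies are removed by UMIs; all intervals cover counting error only. No p-value was computed, since cells from the same pool do not replicate a condition. The text names the 10 genes, from each pathway list the called genes (up to 4 per direction, by log2 ratio after adding 10 CPM) or else the 2 most abundant, and for Tubb2a, Tubb6 and Tppp3 the 3 genes of most like level across labels.

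Thinning drew 5000 UMIs per cell and left out 486 control and 264 diabetic cells below that depth. Scrublet's automatic threshold marked 0 cells, so the top 8% of scores in each library, 791 and 683 cells, were left out as likely doublets in an alternative. Other alternatives were median-of-ratios scaling, removal of cells over 10% mitochondrial counts (36 and 26 cells), removal of TAC2 cells, the same label weights in both libraries, other minimum counts and folds, and, added after seeing the data, removal of Conj or LSC cells and of cells with 5 or more Conj list UMIs. Gene positions and transcripts came from GENCODE M21 on GRCm38, and promoters from RefSeq; some coding ends are not reported here. The rule was tried on simulated Poisson counts with set folds, which hold no variation between pools, animals or cells. Such counts cannot show how the rule behaves with 1 library per group. Statistics used scipy 1.17.1 and pandas 2.3.3 under Python 3.11.15 with numpy 2.4.6; Scrublet ran from scanpy 1.11.5, and figures were drawn with matplotlib 3.10.9.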

Additional observations from a re-analysis of the deposited data

Results flagged for a closer look

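Tppp3 was the 1 gene of the 10 called in opposite directions in different labels. Its log2 ratio was 1.501 within LSC and 2.12 within TAC2, with the diabetic library higher, and -0.80 within Wing, with the diabetic library lower. With 1 library per group the difference between labels was not tested.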

How the results depend on the processing

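No called log2 ratio of the 10 genes changed sign under any alternative run. Of the 282 alternative log2 ratios within labels, 236 stayed within the main counting interval and 46 moved. Over all cells, where intervals are narrow, 23 of 60 alternative log2 ratios stayed and 37 moved. Of 280 alternative levels 125 moved, of 44 isotype shares 25, and of 55 ratios of the share of cells with a UMI 11. Tubb2a over all cells ranged from -0.99 to -0.74 in log2, and Tppp3 from 1.12 to 1.54 in LSC and from 2.07 to 2.85 in TAC2. The 2 genes called lower over all cells became 0 at a ratio of 2, and the 0 called higher became 2 at the looser ratio tried. The 16 pairs called lower within labels became 8 after thinning, 26 at the looser ratio and 6 at a ratio of 2. The 10 spindle genes called higher became 1 after thinning and 1 without TAC2 cells, and 0 with the same label weights or at a ratio of 2. The 2 other tubulin genes called higher became 0 after thinning, with the same label weights or at a ratio of 2, 1 without TAC2 cells or with a minimum of 200 counts, and 4 at the looser ratio. The 1 nucleation gene became 0 under median-of-ratios scaling, without TAC2 cells, with the same label weights or at a ratio of 2, and 5 at the looser ratio. At that looser ratio 2 microtubule-binding genes were called lower and 3 higher, 1 transport motor lower and 1 higher, and 1 modification gene higher. Fewer counts after thinning, fewer cells or another fold make some of these changes by construction; for the rest the cause was not tested. Among all genes, summed over all cells, 828 were called higher and 387 lower, 68.1% higher. This was 656 and 485 (57.5%) under median-of-ratios scaling, which shifts log2 ratios by 0.06. It was 460 and 353 (56.6%) with the same label weights, 379 and 247 after thinning, and 659 and 369 without TAC2 cells. No count over all genes is given here for other ratios or minimum counts, or within labels under the alternatives. The changed counts of members and list genes under those settings therefore describe these genes only. No paired analysis was possible because each group has 1 library, and for the same reason no library could be left out. Tubb6, and Tubb2a in Basal and TAC1 cells, rest on few UMIs, and depth limits what can be said of them.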
